A study of Mus musculus with 19 samples.

Results

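The day 8 mitotic regenerating cells are 250 mouse colonic epithelial cells from 1 droplet single-cell RNA library, picked by how much of their RNA came from 7 genes of cell division. A barcode was kept when it passed a minimum of UMIs (unique molecular identifiers, each standing for 1 captured transcript) that lies just under the 6796 of the shallowest kept cell, and when it held at least 500 genes, at most 20% of UMIs from mitochondrial genes and under 1% from 8 secretory genes (Reg4, Spink4, Agr2, Muc2, Tff3, Fcgbp, Clca1 and Zg16). These limits left 2020 barcodes, of which the 250 with the highest share of UMIs in Ccnb1, Ccnb2, Cdc20, Cenpa, Cdkn3, Cenpf and Ube2c form the group described here, and 1770 are the other kept cells. These 250 cells are the top of a ranking whose share falls without a gap at the cut. Whether they form a separate type was not tested. The share was 0.436% in the highest cell and 0.228% in the middle of the group. It was 0.1571% in the last cell included (58 of 36924 UMIs) and 0.1567% in the first one left out (51 of 32555 UMIs).

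**Figure D1:**
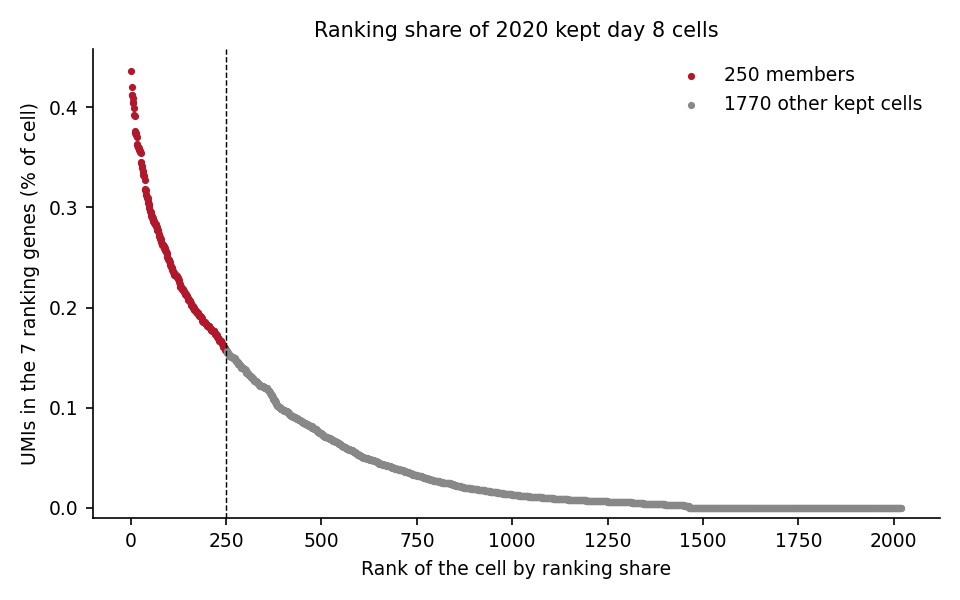
Share of each kept cell's UMIs in the 7 ranking genes (y axis, percent) against the cell's rank (x axis, 1 to 2020), with each point 1 cell and the dashed line after rank 250. The share falls without a gap at the line, and 557 cells at the right have no UMI of the 7 genes.

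The cells came from mice of a C57BL/6 129/Sv mixed background with the genotype Ascl2(mCh); Lgr5Dtr-Egfp+, in which an mCherry reporter marks expression of Ascl2, a transcription factor needed by intestinal stem cells, and Lgr5-expressing stem cells carry GFP and the diphtheria toxin receptor. Diphtheria toxin at 50 ug/kg, injected 4 times on alternate days, removed the stem cells, and on day 8 cells with mCherry and without GFP were sorted. The library thus holds cells that had passed the sort for the reporter and lacked GFP, and it has no replicate. The adult bulk RNA libraries of the same series were 3 of wild-type stem cells and 2 of regenerating cells of that same genotype. The mice of the regenerating bulk libraries were given diphtheria toxin too (50 ug/kg, 4 injections), and none is listed for the wild type. Toxin and regeneration thus cannot be told apart in that comparison. A further 2 libraries were of Ascl2 KO stem cells (Ascl2Fl/Fl; Lgr5EGFP-Cre+, given tamoxifen). The knockout differs from the wild type in its Lgr5 allele and in tamoxifen as well. The Lgr5 allele drives Cre there, so that deletion starts in cells that express Lgr5. Another 8 bulk libraries held Epcam-sorted hindgut epithelium of CD1 embryos at E11, E12, E14 and E16, with 2 per age. Ages and numbers of adult mice are not given in the sources used here.

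As background, a cell enters mitosis when the kinase Cdk1, bound to cyclin A or B, is switched on, and it leaves when the anaphase-promoting complex (APC/C), a ubiquitin ligase, marks cyclin B and securin for destruction. Transcripts of the mitotic machinery build up in G2 and M phase, after the genes of DNA replication have peaked in S phase. In the colonic crypt, stem and transit-amplifying cells near the base divide, and absorptive colonocytes higher up have left the cell cycle. RNA in a G2 cell and in an M-phase cell is hard to tell apart, so the word mitotic stands here for genes of the G2 and M program.

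Many promoters of these genes share a pair of short elements. The CCAAT box is bound by the factor NF-Y, and the cell cycle homology region, TTTGAA, is bound by the DREAM and MuvB complexes with B-Myb and FoxM1. Genes of S phase more often carry E2F-type elements such as TTTCCCGC or TTTGGCGC. The 4 windows below are shown to let the elements be seen in place for 3 ranking genes and for Mcm6, a replication gene that was low in the 250 cells. They run from 250 bases before to 50 after the RefSeq start (GRCm38.p6), 5′ to 3′ on the gene's strand, and capitals mark these elements or their reverse complements. All 4 genes lie on the minus strand. Ccnb2 is at chr9:70421505-70421804, Cdc20 at chr4:118437294-118437593, Cenpf at chr1:189688037-189688336 and Mcm6 at chr1:128359656-128359955.
Ccnb2: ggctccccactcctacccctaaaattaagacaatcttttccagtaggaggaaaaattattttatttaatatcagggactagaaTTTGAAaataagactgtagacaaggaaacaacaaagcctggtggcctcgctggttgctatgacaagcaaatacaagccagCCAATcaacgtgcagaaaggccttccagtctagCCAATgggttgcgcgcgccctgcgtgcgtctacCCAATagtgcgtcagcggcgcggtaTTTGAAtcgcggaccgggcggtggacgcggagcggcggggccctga
Cdc20: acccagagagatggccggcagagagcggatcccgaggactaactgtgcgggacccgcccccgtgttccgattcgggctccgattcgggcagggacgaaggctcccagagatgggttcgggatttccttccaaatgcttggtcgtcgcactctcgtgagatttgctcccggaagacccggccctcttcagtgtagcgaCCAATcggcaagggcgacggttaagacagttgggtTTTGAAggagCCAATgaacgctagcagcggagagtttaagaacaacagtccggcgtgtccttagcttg
Cenpf: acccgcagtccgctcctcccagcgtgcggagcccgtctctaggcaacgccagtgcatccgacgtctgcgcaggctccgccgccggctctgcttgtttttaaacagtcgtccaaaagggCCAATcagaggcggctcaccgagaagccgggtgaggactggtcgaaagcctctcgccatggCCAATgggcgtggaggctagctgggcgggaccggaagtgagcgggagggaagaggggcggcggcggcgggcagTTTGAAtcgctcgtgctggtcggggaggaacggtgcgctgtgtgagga
Mcm6: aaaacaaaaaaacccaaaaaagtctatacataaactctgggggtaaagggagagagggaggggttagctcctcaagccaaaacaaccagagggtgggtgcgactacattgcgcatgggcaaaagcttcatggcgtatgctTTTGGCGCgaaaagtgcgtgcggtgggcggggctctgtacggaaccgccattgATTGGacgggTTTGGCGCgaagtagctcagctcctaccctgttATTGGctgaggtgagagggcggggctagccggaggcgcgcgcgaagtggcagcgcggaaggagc

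All 7 ranking genes matched a RefSeq promoter. TTTGAA, on either strand, was in 6 of the 7 windows and CCAAT in all 7, and neither E2F-type element was in any of them. Ccnb1 is the gene without TTTGAA. In Cdc20 the TTTGAA began 18 bases before the start and in Ube2c 29 bases before it, whereas in Cenpf and Cenpa it began 2 and 16 bases after it. Of the 93 genes in 7 lists of mitotic genes described below, 78 matched. TTTGAA was in 48 of these (61.54%), CCAAT in 55 (70.51%) and both in 39 (50%). Over all 27025 genes of the promoter table, TTTGAA was in 20.23%, CCAAT in 41.06%, both in 7.974% and an E2F-type element in 1.798%. An E2F-type element was in 7 of the 78 mitotic genes (8.974%). The shares depended on the window. With only the 250 bases before the start, TTTGAA was in 35.9% of the 78 mitotic genes, CCAAT in 66.67% and both in 29.49%. Over all genes of the promoter table these shares were 18.26%, 37.49% and 6.453%. Of the 7 ranking genes, 4 then held TTTGAA. Among 19 matched genes of 21 absorptive colonocyte genes, TTTGAA and CCAAT were each in 26.32%. Fewer than 80% of the 39 replication genes matched (30), so the same check is void for that list. A match is a run of letters and not a measured binding site.

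The 250 cells held 7971779 UMIs, with a lowest value of 7343, a median of 29675 and a highest of 79823 per cell. The other kept cells had a median of 24629.5, which puts the 250 cells at 1.20 times that depth. Because depth differed, shares of cells with a UMI are given after thinning every cell at random to the UMI minimum of the selection. Thinned cells showed a median of 2438 genes in the 250 cells and 2354 in the others. Mitochondrial genes took a median of 4.86% and 5.19% of UMIs. A doublet caller (Scrublet) marked 3 of 3253 cells, too few to be of use, so no doublets were removed. More than 49259 UMIs, which is 2 times the median of the other cells, were seen in 26 of the 250 cells (10.4%) and in 142 of the 1770 (8.02%), and the part of doublets in the results was not tested.

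The cells were epithelial. All 250 held UMIs of the epithelial list, and Epcam stood at 2338 CPM (counts per 1000000, here UMIs of the group) against 2252 CPM in the other kept cells. Of 11 immune genes 7 were at 0, Ptprc and Tyrobp among them, and the list came to 6 UMIs in all 250 cells. Of 11 stromal and endothelial genes 9 were at 0, among them Col1a1, Col1a2, Col3a1 and Dcn, with 18 UMIs in all. The 11 tuft genes gave 33 UMIs, and 6 of them, Dclk1 and Trpm5 included, were at 0. The 15 enteroendocrine genes gave 721 UMIs, of which 434 sat in 1 cell.

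Reference groups of 250 cells each were set beside the 250 top-ranked cells, to show where along the cycle and the crypt axis they stood. The first held the 250 cells next in rank. The second, called replication-high, held the 250 of the remaining cells with the highest share in 39 replication genes. The third, called absorptive, held the 250 of the then remaining cells with the highest share in Car4, Slc26a3, Aqp8, Guca2a and Krt20. The last 1020 cells are called the remaining cells. All groups come from the same library, and the groups were defined on it, so that ratios below are descriptions with no test. Each ratio has a 95% exact interval that covers counting error only.

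The 7 ranking genes together stood at 2358 CPM in the top-ranked cells. They stood at 1126 CPM in the cells next in rank, 182 CPM in the replication-high, 52.1 CPM in the absorptive and 180 CPM in the remaining cells. In barcodes with 5 to 50 UMIs, which hold mostly free RNA, they were at 475 CPM. These values chose the cells and are a description of the choice. Ccnb1 (chromosome 13, 100778739 to 100786486, GRCm38) and Ccnb2 (chromosome 9, 70407689 to 70421554) encode the B-type cyclins that activate Cdk1. Ccnb1 ran from 0 to 5 UMIs per thinned cell with a median of 1, and 61.2% of top-ranked cells had at least 1 UMI against 8.76% of the other kept cells and 0.4% of the absorptive ones. Ccnb2 was seen in 74.8%, 20.9% and 4.8%. Cdc20 (chromosome 4, 118432901 to 118437343), which activates the APC/C at anaphase, was seen in 78.0%, 12.7% and 2.4%. Ube2c (chromosome 2, 164769929 to 164772902), the ubiquitin-conjugating enzyme that works with the APC/C, ran from 0 to 16 UMIs per thinned cell with a median of 5. It was seen in 97.6%, 29.0% and 4.4%. Cenpa (chromosome 5, 30666877 to 30674837), the histone H3 variant of centromeres, was seen in 82.8%, 16.6% and 4.0%. Cenpf (chromosome 1, 189640606 to 189688107), a kinetochore protein, was seen in 96.0%, 22.6% and 2.4%. Cdkn3 (chromosome 14, 46760461 to 46771530), a phosphatase that acts on Cdk1 and Cdk2, was seen in 65.6%, 12.5% and 2.0%. Thus each of the 7 was absent after thinning from some top-ranked cells, and no single gene marked them all.

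Of 9859 genes with at least 200 UMIs in the kept cells, 192 were at least 2-fold higher in the top-ranked than in the other kept cells (1.95%), and 245 were at least 2-fold lower (2.49%). The median log2 ratio over all 9859 was 0.03. Among the 192 were the 7 ranking genes and 77 of the 93 genes of the mitotic lists. Another 9 belonged to other lists and 99 to none. The 93 mitotic genes together made up 14099 CPM in the top-ranked cells against 4932 CPM in the others, a ratio of 2.86 (2.84 to 2.88), and 91 of them had a ratio above 1. Their median log2 ratio was 1.69. The cells next in rank stood at 10319 CPM, the replication-high at 7203 CPM and the absorptive at 2032 CPM. The cells were chosen on the same library and contrast, so these counts describe them and are no independent evidence.

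**Figure D2:**
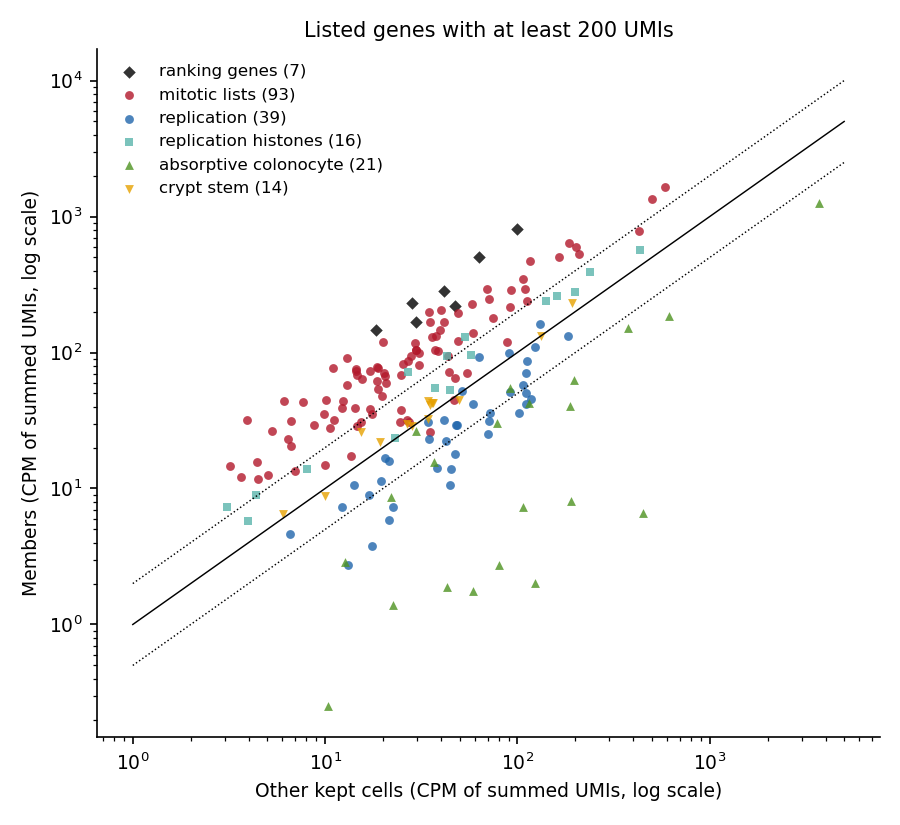
Level of each listed gene with at least 200 UMIs in the 250 top-ranked cells, called members in the plot (y axis, CPM of summed UMIs, log scale), against the 1770 other kept cells (x axis, same unit), with 1 point per gene and list colours as in the key. The solid line marks equal levels and the dotted lines 2-fold differences. Red mitotic points lie mostly above the upper dotted line (77 of 93) and green absorptive points mostly below the lower one (19 of 21).

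The kinases that drive mitosis were higher almost without exception, with 11 of 12 at least 2-fold higher. Cdk1, the kinase that starts mitosis, stood at 246 CPM against 71.3 CPM, a ratio of 3.45 (3.26 to 3.65), and it was at 121 CPM in the replication-high cells. Plk1, which acts in mitotic entry, centrosome maturation and cytokinesis, had a ratio of 5.91 (5.39 to 6.46) and was seen in 56.4% of thinned top-ranked cells, 8.93% of the other kept and 0.8% of the absorptive cells. Aurka, the centrosome and spindle pole kinase, had a ratio of 5.19 (4.65 to 5.79), and Aurkb, the kinase of the chromosomal passenger complex, one of 3.48 (3.19 to 3.80). The checkpoint kinases Bub1b, Bub1 and Ttk had ratios of 5.10, 3.51 and 2.89. Mastl, which restrains the phosphatase that opposes Cdk1, was the kinase below 2-fold, at 1.95 (1.67 to 2.27).

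Regulators of Cdk1 divided into activators and inhibitors. The phosphatases Cdc25c and Cdc25b, which remove the inhibitory phosphates from Cdk1, had ratios of 8.19 (6.76 to 9.94) and 7.13 (6.09 to 8.35). Cdc25c had the highest ratio among the 93 genes, at 32.0 CPM against 3.90 CPM, and the cells next in rank stood at 13.6 CPM. Ccna2, which encodes cyclin A, had a ratio of 4.00 (3.75 to 4.26), and the Cdk-binding proteins Cks2 and Cks1b had ratios of 3.02 and 2.38. Wee1 and Pkmyt1, the kinases that place the inhibitory phosphates, had ratios of 1.21 (1.05 to 1.38) and 1.27 (1.05 to 1.53), both below the 2-fold line.

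Of 12 genes of the chromosomal passenger complex and spindle checkpoint, 9 were at least 2-fold higher. Birc5, which encodes the passenger subunit survivin, stood at 467 CPM against 116 CPM, a ratio of 4.01 (3.85 to 4.18). Cdca8, which encodes borealin, had a ratio of 4.16 (3.95 to 4.39) and Incenp one of 2.67. The checkpoint genes Mad2l1 and Bub3 had ratios of 2.76 and 2.41, and the cohesin protector Sgo2a one of 3.49. Pttg1, which encodes securin, the inhibitor of separase, had a ratio of 1.28 (1.17 to 1.41), whereas Espl1, which encodes separase, had one of 3.35 (2.58 to 4.31). After thinning, Pttg1 was seen in 30.8% of absorptive cells and 36.4% of top-ranked cells, a narrower gap than that of Mad2l1 (3.2% and 38.4%). Fbxo5, which encodes the APC/C inhibitor Emi1, had a ratio of 1.52, and Mad1l1 one of 1.47.

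All 13 mitotic kinesins and related motors were at least 2-fold higher. The highest ratios were those of Kif2c, a microtubule depolymerase of the centromere, at 5.66 (4.88 to 6.57), the kinetochore motor Cenpe at 5.12 (4.79 to 5.47) and Kif14, of cytokinesis, at 5.02 (4.16 to 6.04). Kif11, which pushes spindle poles apart, had a ratio of 3.51 and Kif15, which shares that role, the lowest of the list at 2.60 (2.37 to 2.86). Kif20a and Kif23, motors of the central spindle, had ratios of 4.39 and 3.24.

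Among 19 spindle and cytokinesis genes, 18 were at least 2-fold higher. Aspm, of the spindle poles, had a ratio of 7.01 (6.30 to 7.81), the microtubule-associated Ckap2 one of 6.99 (6.21 to 7.86) and Hmmr one of 5.79 (5.40 to 6.20). Hmmr was seen in 71.6% of thinned top-ranked cells and in 2.4% of absorptive ones. Tpx2, which activates Aurora A on the spindle, had a ratio of 4.03, and Prc1 and Anln, of the central spindle and contractile ring, had ratios of 3.90 and 4.67. Arl6ip1 and Tubb4b are less specific. Arl6ip1 stood at 640 CPM in top-ranked and 271 CPM in absorptive cells, and Tubb4b, a beta-tubulin, at 1356 CPM and 595 CPM. Tubb5, another beta-tubulin, was below 2-fold at 1.84 (1.79 to 1.90).

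Of 17 kinetochore and centromere genes, 11 were at least 2-fold higher and all were above 1. Knl1 (3.51), Nuf2 (3.19) and Spc25 (3.28), of the outer kinetochore, and Ska1 (3.63) and Ska3 (3.52), which hold it to microtubules, were high, and Ndc80 lay just under the line at 2.00 (1.72 to 2.31). Several members of the inner centromere network were closer to the other cells, namely Cenph at 1.12 (0.97 to 1.28), Cenpk at 1.26 (1.09 to 1.45) and Cenpm at 1.65 (1.50 to 1.81). Hjurp, the chaperone that loads Cenpa, had a ratio of 1.36 (1.27 to 1.46), far below that of Cenpa itself (6.91).

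Of 12 genes of chromosome compaction and chromatin, 9 were at least 2-fold higher. Mki67, the proliferation marker that coats mitotic chromosomes, stood at 602 CPM against 201 CPM, a ratio of 2.99 (2.89 to 3.10). It was seen in 95.2% of thinned top-ranked, 48.1% of other kept and 8.4% of absorptive cells, and it was at 300 CPM in replication-high cells. Top2a, which untangles sister chromatids, had a ratio of 2.52 (2.43 to 2.62) and Hmgb2 one of 2.80 (2.74 to 2.86). Every thinned top-ranked cell held Hmgb2, with 3 to 27 UMIs and a median of 11. The condensin subunits were not alike. Smc4, Smc2, Ncapg, Ncapd2 and Ncaph, which belong to condensin I or to both complexes, had ratios from 2.13 to 2.89, whereas the condensin II subunits Ncaph2, Ncapd3 and Ncapg2 had ratios of 1.37, 0.96 (0.85 to 1.07) and 0.74 (0.64 to 0.85). Ncapg2 and Ncapd3 were the 2 of 93 genes with a ratio below 1.

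The subunit genes of the APC/C named here differed little, apart from Cdc27. Of 13 genes of the complex and of mitotic exit, 3 were at least 2-fold higher. These were Ube2s, which extends ubiquitin chains on APC/C substrates, at 2.46 (2.37 to 2.54), Fzr1, which encodes the activator Cdh1 of late mitosis and G1, at 2.90 (2.55 to 3.29), and the subunit gene Cdc27 at 2.11 (1.85 to 2.40). The core subunit genes Anapc1, Anapc2, Anapc4, Anapc5, Anapc10, Anapc11 and Anapc13 had ratios from 1.03 to 1.28. Of the transcription factors that act on the G2 and M genes, Foxm1 had a ratio of 2.93 (2.46 to 3.48) and Mybl2, which encodes B-Myb, one of 0.47 (0.33 to 0.66), at 4.89 CPM against 10.3 CPM. The MuvB subunit genes Lin9, Lin37 and Lin54 had ratios from 1.28 to 1.41, and Lin52 had one of 0.95 (0.60 to 1.44).

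Genes of DNA replication were lower. The 39 genes together stood at 1539 CPM against 2388 CPM, a ratio of 0.64 (0.63 to 0.66), with 15 at least 2-fold lower and 4 above 1. The replication-high cells stood at 4983 CPM. Licensing and G1/S genes had the lowest ratios, with Cdc6 and Ccne2 (cyclin E2) both at 0.21 (0.14 to 0.31 and 0.13 to 0.32), Ccne1 at 0.27 and Cdt1 at 0.31. Ung, a uracil glycosylase, had a ratio of 0.24, and E2f1 one of 0.32. The helicase subunits Mcm2, Mcm3, Mcm4 and Mcm6 had ratios from 0.35 to 0.38, and the sliding clamp Pcna one of 0.46 (0.41 to 0.50). Mcm6, whose promoter is printed above, stood at 45.2 CPM in top-ranked cells, 87.0 CPM in those next in rank and 228 CPM in replication-high cells. The genes above 1 included enzymes of nucleotide supply, namely Tk1 at 1.46 (1.34 to 1.58), Tyms at 1.23 (1.16 to 1.31) and Rrm1 at 1.11 (1.03 to 1.19), beside Gins2 at 1.00 (0.90 to 1.11). Rrm2, the partner subunit of Rrm1, was at 0.61 (0.53 to 0.69).

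Replication-dependent histones went the other way. The list stood at 2298 CPM against 1484 CPM, a ratio of 1.55 (1.52 to 1.57), and the 16 histone genes with at least 200 UMIs were all above 1, with 5 at least 2-fold higher. The cells next in rank stood at 2837 CPM and the replication-high at 2806 CPM, both above the top-ranked cells, and the absorptive cells at 664 CPM. Hist1h1b, a linker histone gene, followed this order with 563 CPM in the top-ranked, 890 CPM in the next and 1063 CPM in the replication-high cells. Hist1h2bc broke it, with 394 CPM in top-ranked, 72.4 CPM in replication-high and 396 CPM in absorptive cells. The genes of this family are near-identical and mostly lack poly(A) tails, so their counts in a poly(A)-primed library are uncertain one by one.

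Cell by cell, the groups differed, with no single order over the lists. The groups were cut first by the ranking share, so a fall of mitotic UMIs with rank is partly built in. In thinned cells, the 93 mitotic genes gave 25, 97 and 170 UMIs (lowest, median, highest) in the top-ranked cells. Medians were 69 in the cells next in rank, 45 in the replication-high, 10 in the absorptive and 17 in the remaining cells. All 250 cells lay above the median of the other kept cells (21) and 158 above their 95th percentile. Replication genes gave 1, 9 and 39 UMIs, and 35 of 250 cells (14%) lay above the median of the others (15). Histone genes gave a median of 14 against 4, with 196 cells above it. The top-ranked cells and the replication-high cells overlapped in replication UMIs, at 1 to 39 and 21 to 60.

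**Figure D3:**
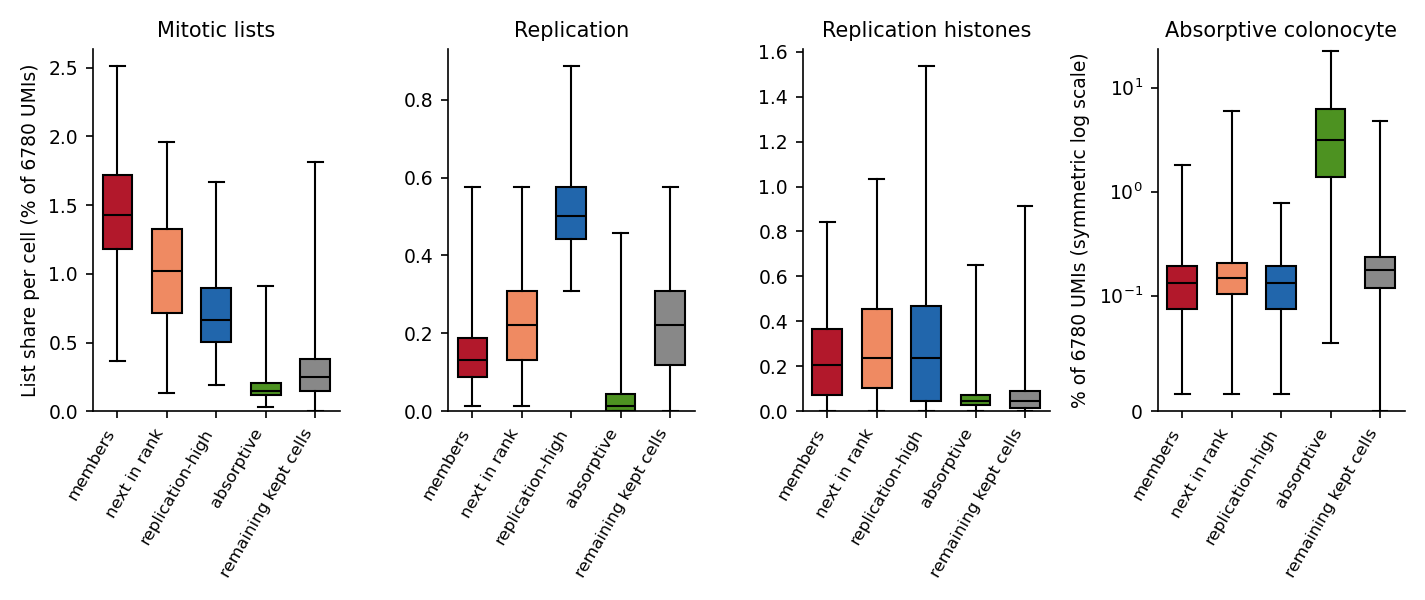
Share of UMIs per cell after thinning to the UMI minimum (y axes, percent) for 4 lists in 5 groups of cells (x axes), with boxes at the quartiles, the line at the median and whiskers at the lowest and highest cell; the right panel has a symmetric log axis. The 250 top-ranked cells (members) sit highest in the mitotic panel and below the replication-high cells in the replication panel, and only the absorptive group stands up in the absorptive panel.

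The 250 cells were not all alike. In bands of 50 by rank, the 7 ranking genes stood at 3522 CPM in the top band and 1708 CPM in the last, which the ranking fixes. Cells of the top band were shallower, with a median of 24318.5 UMIs against 31790 in the last. The part of depth in the ratios between bands was not tested. The mitotic lists went from 17538 CPM to 12542 CPM, a ratio of 1.40 (1.37 to 1.42), and every list of the 7 was higher in the top band. Among single genes, Aurka had a ratio of 2.28 (1.72 to 3.03), Cdc25c one of 2.11 (1.39 to 3.24), Arl6ip1 one of 2.06 and Aspm one of 2.01. Top2a, Mki67 and Hmgb2 had ratios from 1.24 to 1.31, and Kif20a differed by less than its counting error at 1.09 (0.78 to 1.52). Replication genes went the opposite way, from 1192 CPM in the top band to 2061 CPM in the last. Hells, a chromatin remodeler of S phase, Pcna and Mcm6 had ratios of 0.23 (0.14 to 0.36), 0.28 (0.19 to 0.43) and 0.29 (0.18 to 0.44). Tyms, at 0.86 (0.71 to 1.03), did not follow them beyond counting error. Stem, absorptive and ribosomal lists stood at 1.02, 0.97 and 0.98. Histones stood at 0.84, and the 8 secretory genes, which had been limited to under 1%, at 0.58 (0.54 to 0.62).

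**Figure D4:**
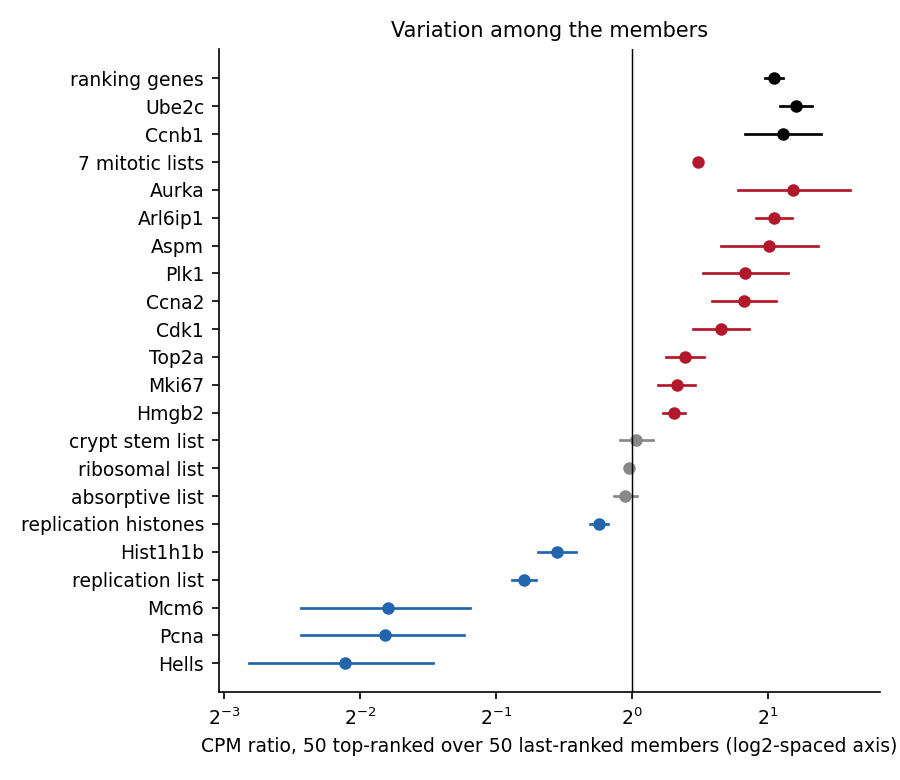
Ratio of CPM in the 50 highest-ranked over the 50 last-ranked of the 250 cells (x axis, log2-spaced) for lists and single genes (y axis), with points for ratios and bars for 95% counting intervals. Black marks ranking genes, red mitotic, grey reference and blue replication genes. Mitotic points lie right of 1 (Aurka 2.28) and replication points left of it (Hells 0.23).

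Across the 250 thinned cells, as a description, UMIs of the mitotic lists and of histones had a Pearson r of 0.56 and a Spearman rho of 0.55. Replication and histone UMIs had r 0.37 and rho 0.37. Replication UMIs had r -0.15 and rho -0.12 with those of the 7 ranking genes, which chose the cells, and r 0.13 and rho 0.17 with those of the mitotic lists. UMIs of the 7 ranking genes and of histones had r -0.03 and rho -0.04. Over all 2020 kept cells, rho was 0.62 for mitotic lists and histones, 0.43 for mitotic lists and replication and 0.54 for ranking genes and histones. There it was 0.21 for replication and histones and 0.04 for replication and ranking genes. The points are cells of 1 library at 1 depth, and the counts share each cell's fixed total.

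Markers of the crypt base differed little. The stem list had a ratio of 1.12 (1.09 to 1.15), and none of its 14 genes with at least 200 UMIs was past 2-fold. The list stood at 736 CPM in the top-ranked and 300 CPM in the absorptive cells. Against the remaining cells alone its ratio was 1.02 (0.99 to 1.05). Ascl2 stood at 22.1 CPM against 19.3 CPM (ratio 1.14, 0.97 to 1.34) and Lgr5 at 3.14 CPM against 2.32 CPM (1.35, 0.84 to 2.10), both within counting error, and the absorptive cells stood at 2.69 CPM and 0.32 CPM. The Wnt target Axin2 had a ratio of 1.28 (1.14 to 1.44), and Cd44, an adhesion receptor of crypt cells, had the highest of the list at 1.69 (1.44 to 1.98). Smoc2 had a ratio of 1.16 (1.03 to 1.31) but a log2 ratio of -0.05 when cells were thinned before ranking. Notch pathway genes stood at 0.97 and immediate-early genes, which respond to dissociation, at 0.97. The Notch list stood at 0.88 (0.84 to 0.92) against the remaining and 1.98 (1.84 to 2.13) against the absorptive cells. Ribosomal protein genes made up 276180 CPM against 277787 CPM, with 300115 CPM in the remaining and 158248 CPM in the absorptive cells.

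Of 18 genes of G1 and of Cdk inhibitors with at least 200 UMIs, 2 were at least 2-fold lower and none at least 2-fold higher. The cyclin genes Ccnd1 and Ccnd2 had ratios of 0.98 and 0.91 and Cdk4 one of 0.95. Cdkn1a, which encodes p21, stood at 20.2 CPM against 61.6 CPM (ratio 0.33, 0.28 to 0.38), and Cdkn2b, which encodes p15, had a ratio of 0.32 (0.22 to 0.44). Both ratios rest on the absorptive cells, where Cdkn1a stood at 325 CPM and Cdkn2b at 94.3 CPM, against 22.0 and 3.21 CPM in the remaining cells. Without the absorptive cells in the comparison, chosen after the data were seen, the log2 ratio of Cdkn1a went from -1.61 to -0.14. After thinning, Cdkn1a was seen in 10.0% of top-ranked, 20.9% of other kept and 75.2% of absorptive cells. Cdkn2c, which encodes p18, had a ratio of 1.66 (1.41 to 1.94).

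Genes of absorptive colonocytes were lower, which depended on 1 group of comparison cells. The 21 genes stood at 1900 CPM against 6547 CPM, a ratio of 0.290 (0.286 to 0.295), with 19 at least 2-fold lower. The 250 absorptive cells stood at 34633 CPM and the replication-high cells at 1659 CPM. Without those 250 cells in the comparison, chosen after the data were seen, the log2 ratio of the list went from -1.78 to -0.30, and genes at least 2-fold lower went from 245 to 82, while genes at least 2-fold higher went from 192 to 168. Car4, a carbonic anhydrase, was at 2.01 CPM in the top-ranked, 941 CPM in the absorptive and 0.57 CPM in the remaining cells. Saa1, a serum amyloid gene, went from a log2 ratio of -6.08 to 1.28 without the absorptive cells. The absorptive cells were picked by 5 of the 21 genes and left out on the comparison side only, which by itself raises the ratio of those genes. Lypd8, an antibacterial protein of colonocytes, stood at 1248 CPM in the top-ranked, 1655 CPM in the remaining and 18017 CPM in the absorptive cells. Ly6a, a gene known from regenerating intestinal epithelium, stood at 417 CPM in the top-ranked, 2242 CPM in the absorptive and 283 CPM in the remaining cells.

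The secretory genes used as a limit stood at 1355 CPM against 1612 CPM, and at 17244 CPM in barcodes of 5 to 50 UMIs. Agr2, a protein disulfide isomerase of mucus-producing cells, had a ratio of 0.85 and Muc2, the gel-forming mucin, one of 0.58 (0.51 to 0.65). Secretory genes outside the limit had a ratio of 0.80 (0.77 to 0.82). Spdef and Atoh1, which direct secretory fate, were at 4.27 CPM and 7.90 CPM, with intervals of the ratio that hold 1.

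Outside all lists, the rule of highest ratio at 100 CPM or more named 15 genes on each side. Cdca3, a trigger of mitotic entry, led at 4.22 (4.01 to 4.44), followed by the cohesin subunit Rad21 at 2.46, Ccdc34 at 2.13 and the histone chaperone Anp32e at 2.10. Tuba1b, an alpha-tubulin, was at 1.99, and H1f0, Nucks1, Lmnb1 (a nuclear lamin), Rangap1, H2afz, Cdo1, Hp1bp3, Serinc3, Ppih and H2afv had ratios from 1.65 to 1.94. The 15 lowest were 1810065E05Rik at 0.08 (0.07 to 0.09), Sprr2a3 at 0.11, Mgat4c at 0.15 and then Phgr1, Prdx6, Il18, Gsdmc4, Smpdl3a, 2200002D01Rik, Ggh, Slfn9, Lgals3, Plac8, Sult1b1 and Ms4a8a, from 0.29 to 0.48. All of these but Slfn9 were highest in the absorptive cells (456 to 7532 CPM). Slfn9 was at 48.9 CPM in the top-ranked, 290 CPM in the replication-high and 34.1 CPM in the absorptive cells.

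The bulk libraries allowed the same genes to be tested between groups of samples. In bulk RNA, fewer dividing cells and less mitotic RNA per cell cannot be told apart. The adult libraries held 16553279 to 30074569 gene counts, and nothing in the labels says whether replicates came from separate mice, so p-values measure the spread between these samples. Regenerating and wild-type libraries were compared to ask whether cells refilling the crypt differ from resident stem cells in mitotic genes. Levels are CPM on the TMM scale. The 7 ranking genes summed to 758 and 539 CPM in the regenerating libraries and to 1214, 744 and 713 CPM in the wild-type libraries, and the groups overlapped. None of the 90 tested genes of the mitotic lists was called by edgeR's quasi-likelihood test with Benjamini-Hochberg adjustment, where 0.331% of all 13911 genes were called (0.302% higher, 0.0288% lower). By edgeR 3 of the 90 had an unadjusted p below 0.05, where 10.5% of all genes did. DESeq2 called none of the 90 either, and 5 had an unadjusted p below 0.05 there, where 9.0% of all genes did. Of the 90, 72 had a log2 fold change below 0, with a median of -0.22 beside 0.01 over all genes. With library-size scaling the median over all genes was -0.17, and none of the 90 was called. By edgeR on that scale 12 of the 90 had an unadjusted p below 0.05, where 11.1% of all genes did.

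Cenpf had the lowest log2 fold change of the ranking genes in regenerating against wild-type cells. It was at 78.3, 28.0 and 49.8 CPM in wild-type libraries, and regenerating ones lay below all of these at 17.7 and 20.2 CPM. Its log2 fold change was -1.46 ± 0.39 (SE), with an edgeR adjusted p of 0.221, and it was called by DESeq2 (adjusted p 0.0161) and by edgeR with no filter on low counts (adjusted p 0.0453). Ube2c was at 190 and 146 CPM against 315, 220 and 179 CPM, with overlap, and the other 5 ranking genes also had log2 fold changes below 0 (-0.63 to -0.07), none called.

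In knockout cells, genes of the mitotic lists were called at about the rate of all genes. Ascl2 itself, counted over the whole gene, gave 110, 151 and 104 CPM in wild-type libraries, 85.7 and 57.0 CPM in regenerating libraries and 53.8 and 59.2 CPM in those of the knockout. Its knockout log2 fold change was -1.11 ± 0.27 (SE), with an edgeR adjusted p of 0.0115. Of the 90 mitotic genes, 15 rose and 17 fell on the TMM scale, where 36.2% of all genes were called, 18.8% higher and 17.4% lower. With plain library-size scaling 5 rose and 47 fell, where 8.86% of all genes were called higher and 38.3% lower. Of the ranking genes, Cdkn3 rose, from 81.9, 30.8 and 50.6 CPM to 300 and 243 CPM (log2 fold change 2.32 ± 0.37 SE, edgeR adjusted p 0.00141). Ube2c rose too, to 943 and 485 CPM (1.59 ± 0.33 SE, edgeR adjusted p 0.00559), as did Cenpa (1.18 ± 0.36 SE, edgeR adjusted p 0.0319), and Ccnb1 fell, to 32.4 and 19.2 CPM (-1.14 ± 0.38 SE, edgeR adjusted p 0.0445). Kif20a fell most, by 3.48 on the log2 scale (edgeR adjusted p 0.000122), and Cks2 rose most (3.01, edgeR adjusted p 9.68e-05). Both comparisons share the wild-type libraries.

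The split depended on scaling. Knockout libraries had TMM factors of 0.616 and 0.660 against 1.11 to 1.32 in the other adult libraries, and 59.8% and 62.0% of their reads fell in entries that name no gene against 46.3% to 47.8%. With plain library-size scaling the median log2 fold change of all genes was -1.0 instead of -0.02, so that the 2 scales differ by a shift of nearly all genes. Cenpa and Ube2c then lost their calls (edgeR adjusted p 0.701 and 0.164). Cdc20 and Ccnb2 were then called lower (log2 fold changes -1.74 and -1.08, edgeR adjusted p 0.00275 and 0.0203), and the log2 fold change of Cdkn3 was 1.34. Without knockout replicate 1, Ccnb1, Cenpa and Ube2c lost their calls (edgeR adjusted p 0.0551, 0.251 and 0.0695), and Ccnb1 also lost its call without knockout replicate 2 (0.246), wild-type replicate 1 (0.115) or wild-type replicate 2 (0.0618), and with RLE factors (0.0513). Cenpa lost its call without wild-type replicate 2 (0.0744) or 3 (0.0877). Cenpf was called higher without wild-type replicate 1 (0.0252), and Cdc20 lower without wild-type replicate 3 (0.0493). Cdkn3 stayed called in each of these alternatives.

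**Figure D5:**
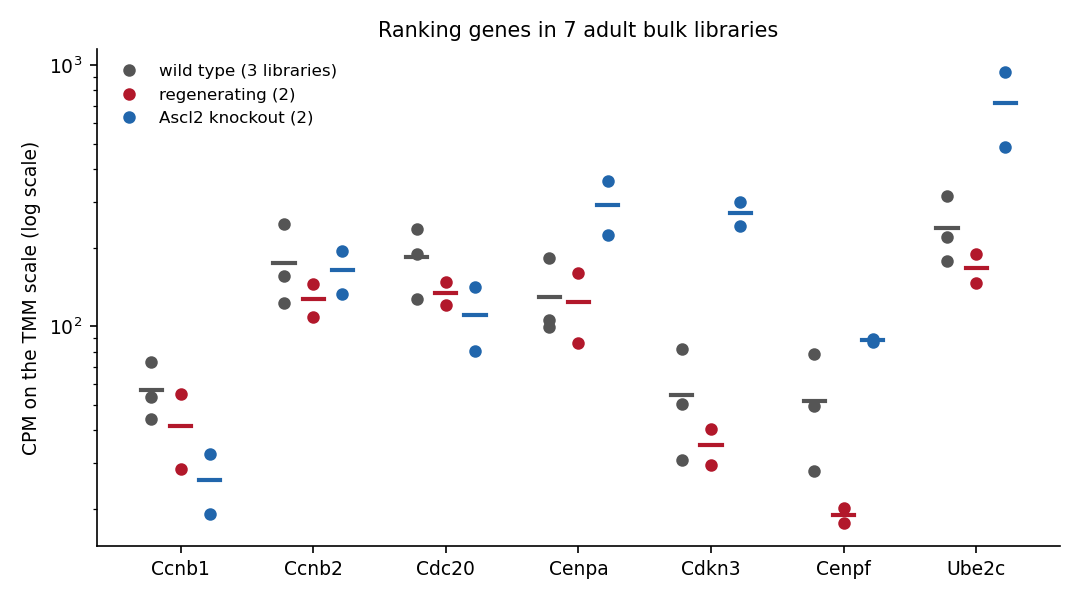
Level of each of the 7 ranking genes in the 7 adult bulk libraries (y axis, CPM on the TMM scale, log scale), with points for libraries and bars for group means. Regenerating points lie below wild type for Cenpf and overlap it for the other genes. Knockout points lie above wild type for Cenpa, Cdkn3, Cenpf and Ube2c and below it for Ccnb1. By edgeR 36.2% of all genes were called in the knockout. Non-overlap was not counted over all genes, so these positions are a description only. With library-size scaling Cenpa and Ube2c are not called in the knockout.

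In hindgut epithelium of embryos, which was made into libraries with another kit, the 7 genes summed to 1351 and 1390 CPM (library-size scale) at E11, 1541 and 1507 CPM at E12, 1157 and 1137 CPM at E14 and 623 and 619 CPM at E16. For the 7 genes the order of ages was E12, E11, E14, E16, and no neighbouring ages overlapped. The 93 mitotic genes summed to 11340 and 12414 CPM at E11, 13289 and 12871 CPM at E12, 12328 and 12427 CPM at E14 and 6379 and 6302 CPM at E16, so that E12 was again highest and E16 lowest but E11 and E14 overlapped. For the 7 genes on that scale the adult libraries ran from 596 CPM (regenerating replicate 2) to 1519 CPM (wild-type replicate 1). The kit and mouse strain differ between embryos and adults, so no fold is given between them.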

How the data were processed

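The authors deposited UMI counts per gene and barcode for all 6794880 barcodes of the single-cell library (31053 genes). Per the file headers the matrix was written by Cell Ranger 3.0.2. For the bulk libraries the authors deposited read counts per gene symbol; STAR 2.5.3a, HTSeq and the builds mm10 and GRCm38 appear in the submitters' processing notes. Strand setting and annotation release are not given in the sources used here. ChIP-seq files were not used here.

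Of 3265 barcodes that passed the UMI minimum, 12 exceeded 20% mitochondrial UMIs and 1233 reached 1% secretory UMIs, which left 2020. UMIs were summed per group of cells and scaled to CPM. Ratios of CPM have 95% exact binomial (Clopper-Pearson) intervals on the split of a gene's UMIs, which cover counting error only. Past 2-fold means a ratio of at least 2 or at most 0.5 among genes with at least 200 UMIs. With 1 library there is no test between cells. Doublets were scored with Scrublet in scanpy 1.11.5.

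All 7 adult bulk libraries were fitted with edgeR 4.0.16 (R 4.3.3), with filterByExpr, TMM, the quasi-likelihood F test, Benjamini-Hochberg adjustment over 13911 of 24062 genes and a threshold of 0.05, two-sided, and DESeq2 1.42.0 as an alternative. The 5 entries that name no gene (46.3% to 62.0% of reads) stayed out of sizes and tests. No pair of bulk replicates agreed within sampling noise. The ratio and the bulk fit were tested on simulated counts.

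Named genes are the 7 ranking genes, genes of 27 lists, and outside the lists the 15 highest and 15 lowest ratios at 100 CPM or more. The cells and the lists were chosen with earlier results of these data known.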

Additional observations from a re-analysis of the deposited data

How the results depend on the processing

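The number of mitotic genes at least 2-fold higher stayed within 1.5 times of 77, and the median UMIs of the 250 cells within their quartiles, under every alternative run. No log2 list ratio (1.52 mitotic, -0.63 replication, -1.78 absorptive) changed sign. In the order mitotic, replication, absorptive, values beyond counting error were 1.49, -0.81 and -1.86 with the upper 50% of the 250 cells, and 1.68, -0.34 and -1.72 with 500 cells. They were 1.64, -0.60 and -2.11 after thinning before ranking, and 1.67, -0.68 and -2.10 with the mean share per cell. With the 224 of the 250 cells up to 2 times the median UMIs of the other cells, they were 1.55, -0.69 and -2.0. High-UMI cells stayed on the comparison side there, so the part of doublets was not tested. Mitotic and absorptive were 1.49 and -1.49 at 10% mitochondrial UMIs, 1.56 and -1.90 at 0.5% secretory UMIs, and 1.89 and -1.96 without the cells next in rank. Replication and absorptive were -0.69 and -1.67 at 2% secretory UMIs, and absorptive was -1.82 without Scrublet-marked cells. Leaving out 1 ranking gene gave 1.45 to 1.54 for mitotic and -0.71 to -0.60 for replication, and 229 to 245 of the 250 cells remained.

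Against the other cells without the absorptive ones, added after seeing the data, the 3 ratios were 1.39, -0.78 and -0.30, and genes past 2-fold numbered 250 (82 lower) in place of 437. Without the replication-high cells as well they were 1.48, -0.56 and -0.37, with 238 (60 lower). Saa1 and Car4 then turned to 1.28 and 2.02, or 1.25 and 1.95; Car4 is among the genes that picked the cells left out, which raises it by construction. Thinning gave 291 genes past 2-fold (121 higher) and turned Smoc2 to -0.046. A minimum of 50 UMIs gave 709 (450 lower) and none gave 4661 (1281 higher, 3380 lower). The number of genes tested also changes with the minimum and with thinning, so these counts are not comparable with 437 as shares.

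Regenerating against wild type had 46 calls, 468 by DESeq2, 225 with no filter, 6 with only these groups fitted and 1 to 39 with 1 library left out (1 without regenerating replicate 2 or wild-type replicate 1). No mitotic list gene was called under any of these. Knockout mitotic calls were 5 higher and 47 lower with library-size scaling (8.86% and 38.3% of all genes), and 9 to 17 higher and 7 to 20 lower with 1 library left out (12.3% to 17.7% and 10.6% to 15.7% of all genes). The causes of these changes were not tested. The replicate block gave 47 calls in regenerating cells, with 0 mitotic, and 4353 in knockout cells. In knockout cells 13 of the 90 mitotic genes were called higher and 20 lower, where 16.3% and 15% of all genes were. Same-numbered samples had correlations of deviations of 0.129 and -0.0219 (regenerating) and 0.117 and 0.127 (knockout), and the labels tie same-numbered samples to no shared mouse or batch, so that pairing is not settled. Under the block Cdc20 was called in knockout cells (edgeR adjusted p 0.0170).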

Other observations

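Some cells removed by the secretory limit also reached the share at the cut. Of 1233 removed cells, 56 reached the share of the 250th kept cell (4.54%, exact 95% interval 3.45 to 5.86 for counting error only). Among the 2020 kept cells the number of 250 (12.4%) was fixed by the selection. The 2 shares are therefore a description with no test. The removed cells were shallower, with a median of 14555 UMIs against 25496. The 56 had a median of 28597.5 UMIs and 2.14% secretory UMIs. In them the 93 mitotic genes stood at 14220.5 CPM and the replication genes at 1319 CPM, close to the 14099 and 1539 CPM of the 250 kept cells.

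Ribosomal protein genes were level with the other kept cells as a pooled sum but lower cell by cell. After thinning, the 250 cells had a median of 1870 UMIs against 1990.5 in the other kept cells, and 58 of the 250 (23.2%) lay above that median. The 1020 remaining cells had a median of 2063.5. The absorptive cells had a median of 847.5. Nuclear genes of oxidative phosphorylation stood at 35744 CPM against 38709 CPM in the other kept cells.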
